A study of Mus musculus with 14 samples.

Results

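Inhibition in the brain runs largely through GABA, glycine and the chloride gradient, and 27 genes of these systems were followed here through mouse cortex and hippocampus, out of 20492 genes named in both tables. They were taken by name: the subunits of GABA-A receptors (Gabra2 to Gabra6, Gabrb1, Gabrb2, Gabrg1, Gabrg3, Gabrd, Gabre, Gabrq and Gabrr1 to Gabrr3), both GABA-B receptor genes (Gabbr1, Gabbr2), the glycine receptor subunits (Glra1 to Glra4, Glrb), the postsynaptic organizers Gphn and Nlgn2, the GABA transporter Slc6a11 and the chloride carriers Slc12a2 and Slc12a5. The study asked what neurons do without TRF2, the product of Terf2 and a protein of the shelterin complex that caps chromosome ends. RNA was sequenced from C57BL/6 mice aged 3 months: 4 control and 3 TRF2-depleted samples of cortex, and 3 control and 3 TRF2-depleted samples of hippocampus. Depletion used a Cre recombinase named for Dcx, a gene of migrating and newborn neurons, and the labels do not say whether the controls carry Cre or a floxed allele. Another hippocampal condition, DKO, stands in the hippocampus table only. No sample label describes it, so its genotype and number of animals are not given here. A further TRF2-depleted sample, titled hippocampus but tagged cortex, with a description that names the cortex table, was put in no group. The authors may have pooled it into either depleted value, so the number of samples behind those values is uncertain.

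The GABA-A receptor is a ring of subunits around a chloride pore, and its alpha, beta, gamma and delta members set where the receptor sits and which drugs and GABA levels it answers to. Glycine receptors are built the same way. GABA-B receptors instead signal through G proteins and need both Gabbr1 and Gabbr2. Whether an open chloride pore inhibits a neuron depends on the chloride gradient, which Slc12a2 (NKCC1) loads into the cell and Slc12a5 (KCC2) pumps out.

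Each condition has 1 value per gene row, pooled over its samples by the authors, as FPKM, which scales fragments to transcript length and library size. The total over all genes ran from 159494 FPKM in TRF2-depleted cortex to 171147 FPKM in DKO hippocampus. Terf2 itself went from 3.59 FPKM in control cortex to 0.202 FPKM in depleted cortex. In hippocampus the control value was 2.01 FPKM, the depleted value 0.883 FPKM and the DKO value 0.753 FPKM. The depleted conditions were thus lower in both tissues, yet the cortical row had p = 0.105 and q = 0.576 in the authors' deposited table and the hippocampal rows were not tested. The tissue labels matched their markers: Rorb, a factor of layer IV cortical neurons, was at 9.80 FPKM in control cortex against 3.99 FPKM in control hippocampus, and Fibcd1, a marker of CA1 neurons, at 0.931 against 15.5 FPKM.

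Of the 27 genes, 16 reached 1 FPKM in all 5 conditions, 8 reached it in none and 3 (Gphn, Nlgn2 and Glra3) only in some. In both control tissues Gabbr1 stood at the top, with Gabbr2, Slc12a5 and Glrb also high, and the subunits known from cerebellum (Gabra6), retina (the rho genes) and adult spinal cord (Glra1) were near 0. Because the cortex and hippocampus tables were normalized separately, levels are set side by side across tissues without a test.

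**Figure D1:**
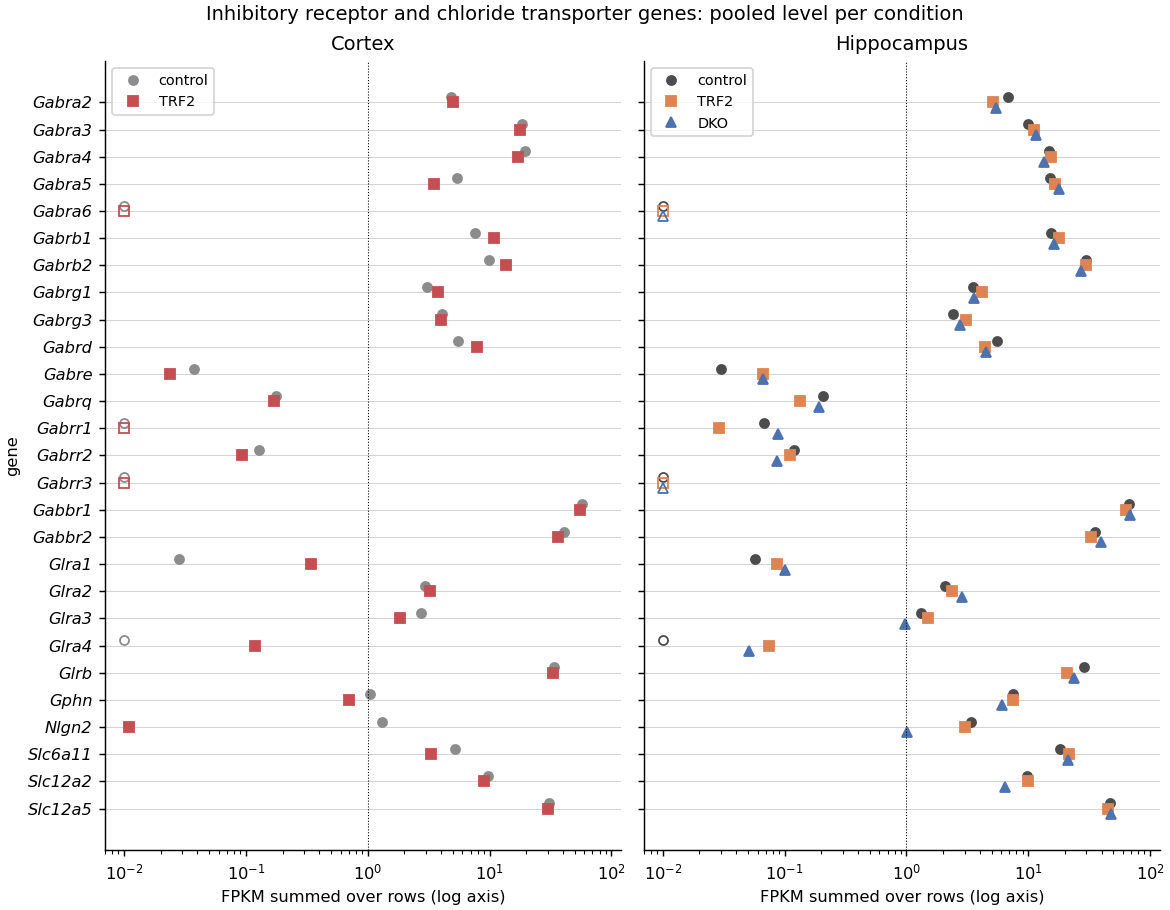
Level of each of the 27 genes (FPKM summed over its rows, log axis) in cortex (left: control circles, TRF2-depleted squares) and hippocampus (right, DKO triangles added). The dotted line marks 1 FPKM, open symbols at the left edge stand for values under the axis start, including 0, and each symbol is 1 pooled value with no error bar; 8 genes lie left of the line in every condition.

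Among the alpha subunits, cortex and hippocampus differed in which one led. Gabra4, found in receptors outside synapses, was at 19.6 FPKM in control cortex and 17.2 FPKM after depletion, and at 14.9, 15.3 and 13.6 FPKM in control, TRF2-depleted and DKO hippocampus. Gabra3, a synaptic and developmentally early subunit, was at 18.3 and 17.6 FPKM in cortex and at 9.90, 11.1 and 11.5 FPKM in hippocampus. Gabra5, the subunit of tonic inhibition in hippocampal pyramidal cells, was at 5.38 and 3.52 FPKM in cortex and at 15.2, 16.6 and 17.9 FPKM in hippocampus. Gabra4 and Gabra3 made up 40.7% and 38.0% of the summed level of the 5 alpha genes followed here in control cortex, while Gabra5 and Gabra4 made up 32.5% and 31.7% in control hippocampus. Gabra2, the alpha subunit of synapses on the axon initial segment, was lower, at 4.85 and 4.98 FPKM in cortex and 6.87, 5.14 and 5.44 FPKM in hippocampus. Gabra6, the subunit of cerebellar granule cells, was listed at 0 in all 5 conditions. Of 10 genes listed as cerebellar granule markers, Cbln3 lay between 0.0272 and 0.138 FPKM, but Etv1 lay between 9.58 and 14.2 FPKM. The list summed to between 25.6 and 38.7 FPKM per condition.

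The beta genes stood higher in hippocampus. Gabrb2 was at 9.90 FPKM in control cortex, 13.7 FPKM in depleted cortex and 29.8, 30.0 and 27.4 FPKM in the 3 hippocampal conditions, a control level 3.01 times that of cortex. Gabrb1 was at 7.59 and 10.8 FPKM in cortex and 15.4, 17.8 and 16.4 FPKM in hippocampus. Both had a higher value in TRF2-depleted than in control cortex, and neither passed the test. Of the gamma subunits, which receptors need for a synaptic place and benzodiazepine binding, Gabrg1 ranged from 3.07 to 4.14 FPKM and Gabrg3 from 2.41 to 4.07 FPKM over the 5 conditions. Gabrd, the delta subunit that makes extrasynaptic receptors sensitive to low GABA and neurosteroids, was at 5.50 and 7.93 FPKM in cortex and 5.51, 4.39 and 4.52 FPKM in hippocampus. The rare subunits Gabre, Gabrq and the rho genes of retina (Gabrr1, Gabrr2, Gabrr3) summed to between 0.287 and 0.430 FPKM per condition, with Gabrr3 listed at 0 throughout.

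Several of these genes are chromosomal neighbours, with levels that were close in some pairs and far apart in others. On chromosome 5 (mm10), Gabrg1, Gabra2, Gabra4 and Gabrb1 follow each other, and control hippocampus held 3.53, 6.87, 14.9 and 15.4 FPKM of them in that order. The cortex table places Gabra4 and Gabrb1 in 1 merged locus. Their levels there are uncertain, since the first listed start of Gabrb1 lies 387 bases from that of Gabra4, on the opposite strand, and the sources used here do not say whether reads were counted by strand. On chromosome 7, Gabrg3 and Gabra5 lie 0.4 kb apart, with 2.41 and 15.2 FPKM in control hippocampus. On X, Gabre and Gabrq flank Gabra3 and were at 0.0300 and 0.205 FPKM in control hippocampus, where Gabra3 was at 9.90 FPKM.

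Promoter sequence also separated the genes only loosely. Of the 27, 24 had an entry of 300 bases around a start in RefSeq's promoter table (GRCm38.p6), and Gabrd, Slc12a2 and Glra1 had none. The 17 genes at 1 FPKM or more in control cortex or hippocampus held 0 to 46 CG dinucleotides with a median of 18, and the 7 lower genes 2 to 24 with a median of 3. All 32851 entries of the table had a median of 7. The CG pair reads the same on both strands, and 94.6% of all entries hold at least 1. The 250 bases before the start are shown for 4 genes that span this range, with each CG in capitals: Gabra3 (chrX:72656920-72657169, minus strand), expressed with no CG; Gabre (chrX:72274722-72274971, minus strand), near 0 with many; Gabra6 (chr11:42321073-42321322, minus strand), at 0 with few; and Slc12a5 (chr2:164967738-164967987, plus strand, the second of its listed starts), highly expressed with many.
Gabra3: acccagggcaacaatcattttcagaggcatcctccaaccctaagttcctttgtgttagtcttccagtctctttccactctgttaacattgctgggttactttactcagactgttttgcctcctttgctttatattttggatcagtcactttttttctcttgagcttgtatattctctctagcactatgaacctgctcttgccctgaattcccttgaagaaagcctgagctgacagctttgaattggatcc
Gabre: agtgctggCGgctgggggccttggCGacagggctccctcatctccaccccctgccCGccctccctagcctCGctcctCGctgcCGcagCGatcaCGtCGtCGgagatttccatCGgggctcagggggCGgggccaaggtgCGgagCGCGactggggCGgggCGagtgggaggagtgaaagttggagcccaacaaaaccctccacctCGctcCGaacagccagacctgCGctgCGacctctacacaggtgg
Gabra6: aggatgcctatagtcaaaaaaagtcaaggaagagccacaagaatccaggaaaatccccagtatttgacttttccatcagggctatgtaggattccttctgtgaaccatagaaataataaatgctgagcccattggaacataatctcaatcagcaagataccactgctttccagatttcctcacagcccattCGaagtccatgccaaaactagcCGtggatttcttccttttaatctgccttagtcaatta
Slc12a5: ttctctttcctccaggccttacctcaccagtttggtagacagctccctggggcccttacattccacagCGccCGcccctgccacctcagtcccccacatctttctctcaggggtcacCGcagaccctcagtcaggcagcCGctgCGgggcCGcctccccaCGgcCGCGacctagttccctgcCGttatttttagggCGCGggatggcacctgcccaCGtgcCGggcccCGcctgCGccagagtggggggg
Gabra3, with 0 CG in its entry, was at 18.3 FPKM in control cortex, whereas its X-linked neighbour Gabre, with 24, was at 0.0377 FPKM. The Gabra3 locus quantified by the authors begins at chrX:72656246 on the minus strand, downstream of the RefSeq start at 72656919. The stretch printed for Gabra3 may therefore not adjoin the start of the RNA measured. Of all entries, 5.43% had no CG and 20.0% had 24 or more. Gabra6 held 2 and the second listed Slc12a5 entry 21. These counts cover the 300 bases of an entry, and the 250 bases printed hold 21 CG for Gabre and 16 for Slc12a5.

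Gabbr1 had the highest level of the set in all 5 conditions. Gabbr1, which binds GABA, stood at 57.5 FPKM in control cortex, 55.6 FPKM in depleted cortex and 66.5, 63.1 and 67.9 FPKM in control, TRF2-depleted and DKO hippocampus. Gabbr2, which couples the receptor to G proteins, was at 40.5 and 36.4 FPKM in cortex and at 35.0, 32.8 and 39.6 FPKM in hippocampus. Gabbr1 exceeded Gabbr2 in every condition.

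Glycine receptors were represented mainly by their beta subunit. Glrb, which anchors the receptor to gephyrin, was at 33.7 and 33.0 FPKM in cortex and at 28.5, 20.7 and 23.6 FPKM in hippocampus. The ligand-binding alpha subunits were far lower: Glra2, the embryonic form, ranged from 2.08 to 3.26 FPKM, and Glra3, a form linked to pain circuits of the spinal cord, from 0.979 to 2.74 FPKM. Glra1, the adult spinal cord form, and Glra4 stayed at or below 0.342 FPKM. Nearly all of the Glrb level lay in 1 of its rows in control cortex (31.7 of 33.7 FPKM) and in the other row, by identifier, in control hippocampus (27.9 of 28.5 FPKM). Rows stand for different coding sequences of 1 gene that share most of their bases, so this split is uncertain.

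The synaptic organizers and the GABA transporter had higher values in hippocampus. Gphn, the gephyrin scaffold under inhibitory synapses, was at 1.05 and 0.702 FPKM in cortex and 7.51, 7.52 and 6.10 FPKM in hippocampus. The control hippocampus value was 7.18 times that of control cortex. Its 2 cortical rows were not tested and the cortical values lie near the minimum of 1 FPKM, so this ratio is uncertain. Nlgn2, the adhesion molecule of inhibitory synapses, went from 1.32 FPKM in control cortex to 0.0111 FPKM in depleted cortex, and was at 3.41, 3.00 and 1.00 FPKM in hippocampus. Slc6a11 (GAT3), the GABA transporter of astrocytes, was at 5.25 and 3.32 FPKM in cortex and 18.1, 21.6 and 21.2 FPKM in hippocampus. In bulk tissue, fewer cells of a type and less RNA per cell cannot be told apart, and this holds for each comparison that follows.

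In cortex, no gene of the set passed the authors' test for a change with TRF2 depletion. Of the 27 genes 17 were tested, and 0 had a q of 0.05 or less in the authors' deposited table, against 0.335% of the 8658 genes tested. At an unadjusted p under 0.05 the count was also 0, against 6.81% of all genes tested. The 19 genes with at least 1 FPKM had a median log2 ratio of -0.05, beside -0.03 over the 11084 genes past the same minimum. Of these 19, 13 were lower and 6 higher in depleted cortex, and 52.6% lay within 1.2-fold of control, beside 69.5% of all genes.

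The cortical values farthest from control had wide errors. A 95% interval was derived from each deposited p, and 11 of the 17 tested genes had one that stayed inside 2-fold in both directions. The other 6 were Gabra5, Gabrb1, Gabrb2, Gabrd, Glra3 and Slc6a11. Gabrd had a log2 ratio of 0.53 with an interval of -0.46 to 1.51 (p = 0.293, q = 0.727 in the authors' deposited table). Slc6a11 had a log2 ratio of -0.66 with an interval of -1.81 to 0.49 (p = 0.260 in the authors' deposited table). At the narrow end, Gabbr2 had -0.15 with an interval of -0.34 to 0.03, and Slc12a5 -0.04 with -0.32 to 0.24. The lowest p of the set belonged to Glra3 (log2 -0.58, p = 0.0795, q = 0.537 in the authors' deposited table) and Gabrg1 (log2 0.28, p = 0.0796). Nlgn2, the gene with the greatest difference in value, was not tested by the authors, and its 2 pooled values carry no error. Of 12 striatal genes listed as markers 11 were in the tables, and 10 of 10 past 1 FPKM had higher values in depleted cortex; their summed level was 65.2 FPKM in control and 85.5 FPKM in depleted cortex, with 0 called. Adora2a, a defining gene of striatal neurons, was at 0.000187 and 0.000129 FPKM. Gabrd, Gabrb1 and Gabrb2 also had higher values, and the part of striatal tissue in them was not tested.

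**Figure D2:**
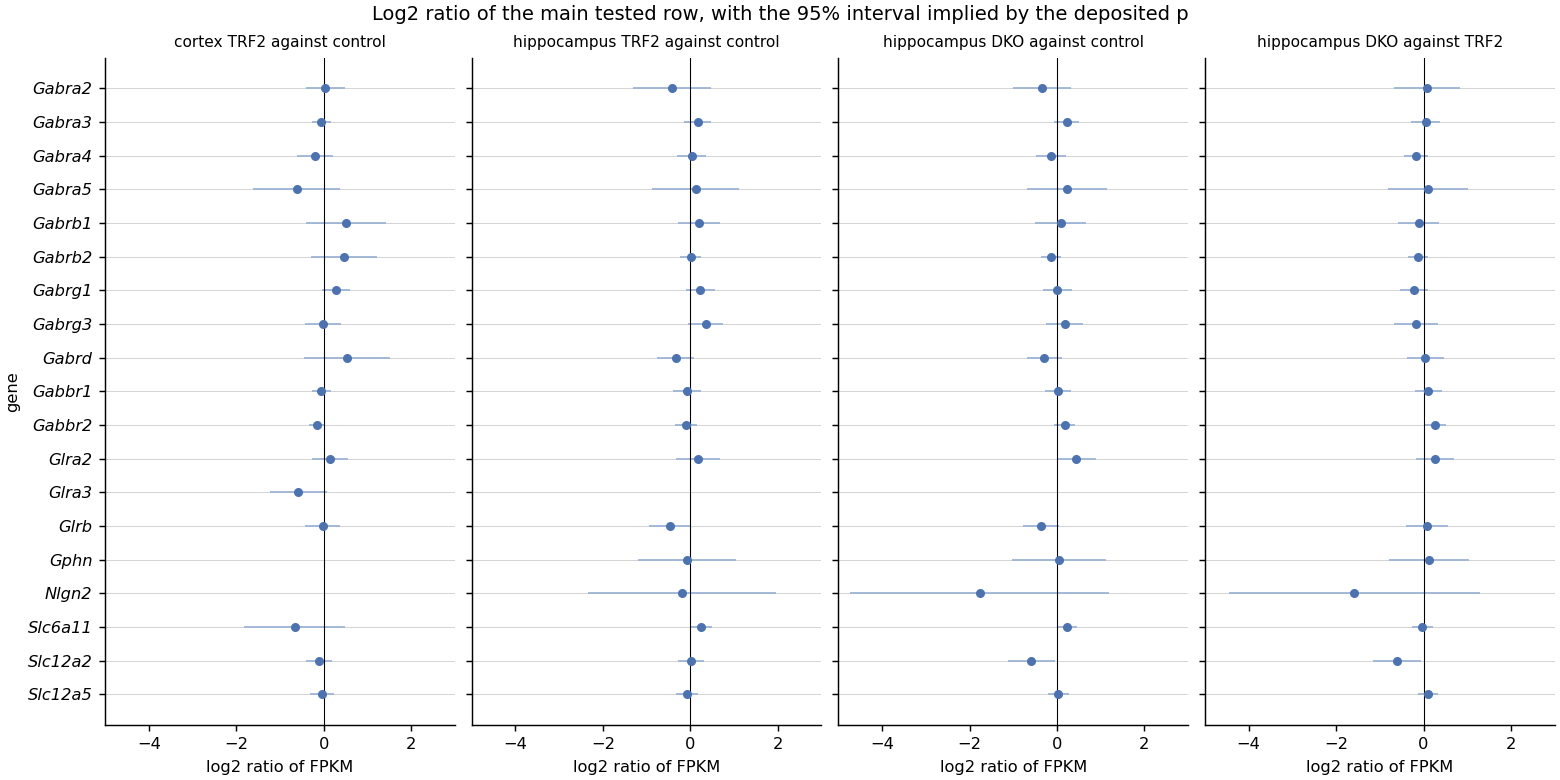
Log2 ratio of the main tested row of each gene (x axis) in the 4 comparisons, with bars for the 95% interval derived from the deposited p; genes without a point were not tested. All intervals span 0 except those of Slc6a11 (TRF2-depleted hippocampus), Glra2 (DKO against control), Gabbr2 (DKO against TRF2) and Slc12a2 (both DKO panels), and Nlgn2 has the widest interval.

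In hippocampus, TRF2 depletion likewise left no gene of the set past the threshold. Of the 18 genes tested, 0 had a q of 0.05 or less in the authors' deposited table, against 0.183% of the 9824 genes tested. One gene, Slc6a11, had an unadjusted p under 0.05, that is 1 of 18, where 5.45% of all genes tested did. The median log2 ratio was 0.02 over the 19 genes past 1 FPKM and 0.00 over all 11249 genes, and 78.9% of the set lay within 1.2-fold, beside 66.3% of all genes. The intervals of 14 of the 18 genes stayed inside 2-fold, and those of Gabra2, Gabra5, Gphn and Nlgn2 did not.

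Slc6a11 was 1.19-fold higher in TRF2-depleted than in control hippocampus, a log2 ratio of 0.25 with an interval of 0.00 to 0.50 (p = 0.0472, q = 0.886 in the authors' deposited table). Its cortical ratio pointed the other way. Of 10 astrocyte markers 0 were called, and their summed level was 648 FPKM in control, 626 FPKM in TRF2-depleted and 636 FPKM in DKO hippocampus. Against control, 4 of the 10 had higher values in TRF2-depleted and 6 in DKO hippocampus. Aldh1l1 was at 6.54, 8.49 and 7.48 FPKM, and Aqp4 went the other way, at 20.1, 15.7 and 15.0 FPKM. For DKO against control Aqp4 had p = 0.00285 and q = 0.405 in the authors' deposited table. The part of astrocyte content in the Slc6a11 value was not tested. Glrb had the next lowest p: its main row had a log2 ratio of -0.45 with an interval of -0.94 to 0.03 (p = 0.0649, q = 0.886 in the authors' deposited table). Gabrg3 had a log2 ratio of 0.35 (p = 0.0855 in the authors' deposited table).

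Gabrd, which is abundant in dentate granule cells, had a log2 ratio of -0.33 with an interval of -0.75 to 0.10 (p = 0.130 in the authors' deposited table). Of 10 dentate granule markers, 8 were tested and 5 were called lower in the same comparison, among them Dsp (3.27 to 1.16 FPKM) and C1ql2 (19.2 to 11.4 FPKM). Their summed level was 137.9 FPKM in control, 86.5 FPKM in TRF2-depleted and 94.2 FPKM in DKO hippocampus, with 4 called lower in DKO. Of all genes tested, 0.183% were called in TRF2-depleted and 0.204% in DKO against control hippocampus. The marker lists were chosen with earlier results of these data known. None of the 10 was at 0. Gabrd followed the same order, at 5.51, 4.39 and 4.52 FPKM, and the part of these cells in it was not tested. Gabra4, another subunit of granule cells, did not follow it, with a log2 ratio of 0.04 and an interval of -0.29 to 0.37.

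The DKO condition was set against both other hippocampal conditions, so its comparison with control shares the control samples with the one above, and both DKO comparisons share the DKO samples. Against control, 0 of 18 tested genes had a q of 0.05 or less in the authors' deposited table (background 0.204%), and 2 had an unadjusted p under 0.05 (background 7.48%): Glra2 higher and Slc12a2 lower. Against TRF2-depleted hippocampus, again 0 of 18 were called (background 0.173%), and 2 had an unadjusted p under 0.05 (background 5.37%): Gabbr2 higher and Slc12a2 lower. The medians over 19 genes were 0.01 and -0.03, beside 0.01 and 0.01 over all genes.

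**Figure D3:**
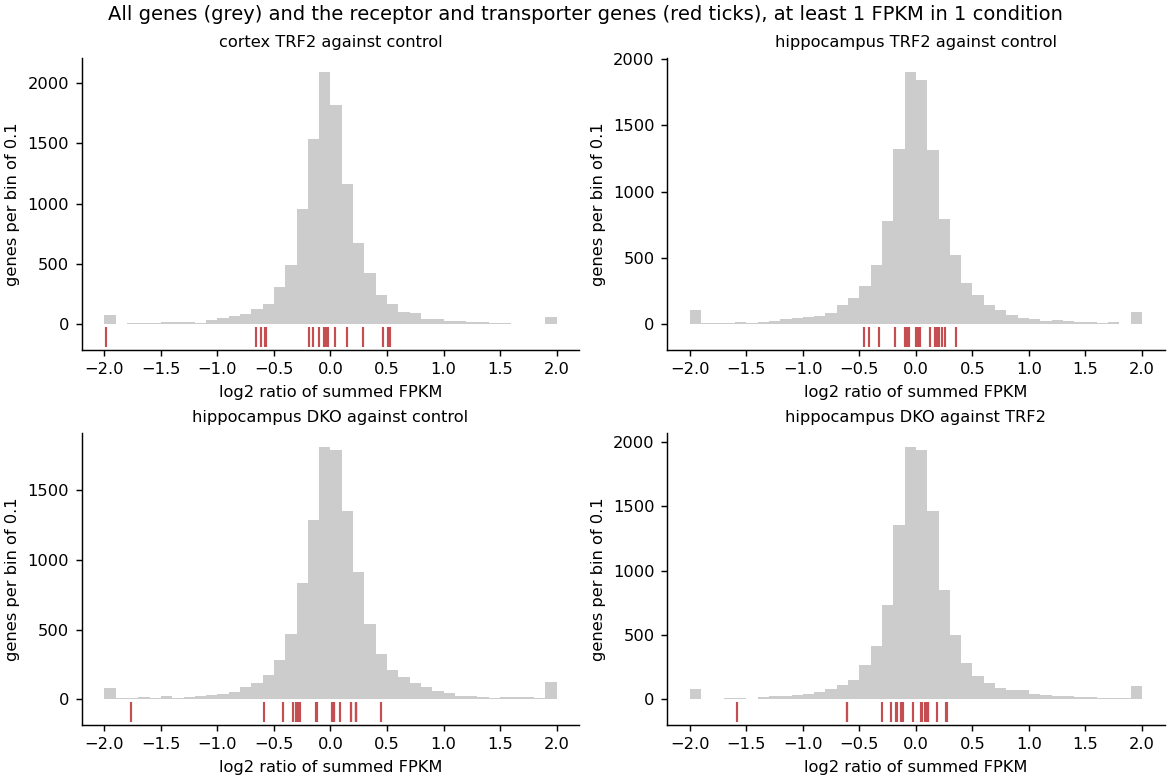
Number of genes per log2 ratio bin (grey, all genes with at least 1 FPKM in 1 of the conditions compared) with the receptor and transporter genes as red ticks, in the 4 comparisons. Values beyond the axis are gathered in the end bins; the ticks lie within the bulk of all genes except Nlgn2 in cortex and in both DKO panels.

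Glra2 had 2.08 FPKM in control hippocampus and 2.84 FPKM in DKO, a log2 ratio of 0.45 with an interval of 0.00 to 0.89 (p = 0.0489, q = 0.886 in the authors' deposited table). The TRF2-depleted level of 2.36 FPKM lay between them. Gabbr2 was at 32.8 FPKM in TRF2-depleted and 39.6 FPKM in DKO hippocampus, a log2 ratio of 0.27 with an interval of 0.04 to 0.51 (p = 0.0227, q = 0.805 in the authors' deposited table). Control, at 35.0 FPKM, again lay between. Nlgn2 had its lowest hippocampal value in DKO, with a log2 ratio of -1.77 against control (p = 0.244 in the authors' deposited table). Against TRF2-depleted hippocampus the ratio was -1.58 with an interval of -4.46 to 1.29 (p = 0.280 in the authors' deposited table), wide enough to hold both a large loss and a rise.

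Of the chloride carriers, Slc12a2 had a lower value in DKO hippocampus, without passing the adjusted threshold, and Slc12a5 was close to control. Slc12a5, the extruder of mature neurons, stood at 31.0 FPKM in control cortex, 30.1 FPKM in depleted cortex and 47.1, 45.0 and 48.2 FPKM in control, TRF2-depleted and DKO hippocampus. Slc12a2, the loader, was at 9.70 and 9.05 FPKM in cortex and at 9.74, 9.89 and 6.49 FPKM in hippocampus. Only the DKO value of Slc12a2 stood away from the other 4. It was lower than control by a log2 ratio of -0.59 with an interval of -1.13 to -0.05 (p = 0.0334, q = 0.868 in the authors' deposited table). Against TRF2-depleted hippocampus the log2 ratio was -0.61 with an interval of -1.15 to -0.06 (p = 0.0291, q = 0.846 in the authors' deposited table). Both comparisons share the DKO samples.

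The ratio of Slc12a5 to Slc12a2, both per length, was 3.19 in control and 3.33 in depleted cortex, and 4.83, 4.55 and 7.43 in control, TRF2-depleted and DKO hippocampus. Its log2 change was 0.06 in cortex, -0.09 in TRF2-depleted hippocampus and 0.62 in DKO against control, with no error since each level is a pooled value. The DKO change of the ratio was carried by Slc12a2, as Slc12a5 differed from control by a log2 ratio of 0.04 with an interval of -0.20 to 0.27.

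Slc12a2 is not a neuronal gene alone: choroid plexus epithelium, which secretes cerebrospinal fluid, and oligodendrocyte lineage cells also express it. The 10 choroid plexus markers summed to 320.8 FPKM in control, 546 FPKM in TRF2-depleted and 22.8 FPKM in DKO hippocampus. In both DKO comparisons 7 of the 10 were tested and 4 (Ttr, Clic6, Kl and Sostdc1) were called lower in the authors' deposited table. Of all genes tested, 0.204% were called against control and 0.173% against TRF2-depleted hippocampus. Ttr, the transthyretin gene that dominates the list, was at 264, 472 and 5.52 FPKM. None of the 10 was at 0 in hippocampus. In cortex the list was at 140.2 FPKM in control and 41.0 FPKM after depletion, with Ttr called lower, while Slc12a2 was at 9.70 and 9.05 FPKM. In TRF2-depleted hippocampus the list was higher than in control while Slc12a2 was level. The 12 oligodendrocyte markers summed to 790.3 FPKM in control, 822 FPKM in TRF2-depleted and 805 FPKM in DKO hippocampus, with 0 called. The part of choroid plexus tissue in the DKO value of Slc12a2 was not tested.

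**Figure D4:**
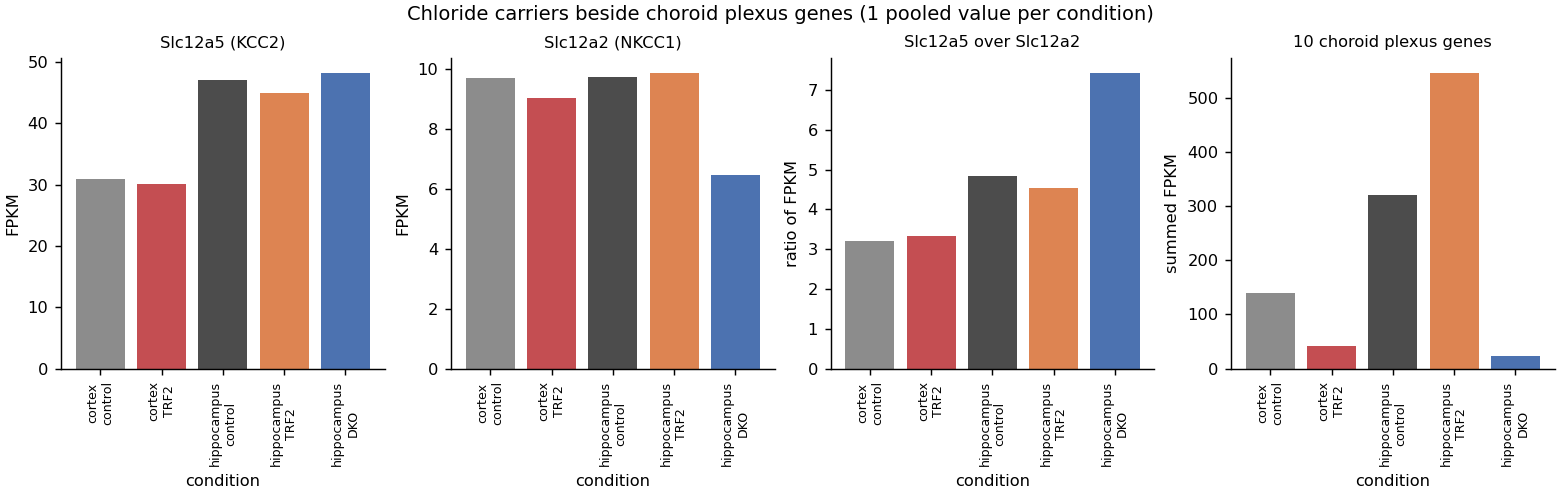
Pooled level of Slc12a5 and Slc12a2 (FPKM), their ratio, and the summed FPKM of 10 choroid plexus genes, as bars from 0 for the 5 conditions. Slc12a5 is level within each tissue, Slc12a2 is lowest in DKO hippocampus (6.49 FPKM), the ratio is highest there (7.43), and the choroid plexus sum is lowest there (22.8 FPKM).

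The genes that work around these receptors did not pass the same test. In all 4 comparisons, 0 genes were called in any of 5 lists: GABA synthesis, packaging, uptake and breakdown (10 genes), glycine transport (2 genes), inhibitory postsynaptic scaffolds and trafficking (21 genes), GABA-B partners (12 genes), and other chloride and bicarbonate handling (23 of 24 genes in the tables). In that order, 8 or 9, 1, 19 or 20, 10 or 11 and 12 to 15 genes were tested. Between 0.173% and 0.335% of all genes tested were called, so 0 in lists of this size is near that share. The lists had a median log2 ratio between -0.12 and 0.21 in every comparison except glycine transport, where 1 gene, Slc6a9, passed 1 FPKM.

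For GABA handling, 3 of 9 tested genes of the list had an unadjusted p under 0.05 in TRF2-depleted against control hippocampus, all higher, where 5.45% of all genes tested did. DKO against control, with the same control samples, also gave 3 of 9, all higher (7.48% of all genes). DKO against TRF2-depleted hippocampus gave 0 of 9 (5.37%), and cortex gave 1 of 8, lower (6.81%). Slc32a1, which loads GABA into vesicles, was at 15.9 FPKM in control, 20.6 FPKM in TRF2-depleted and 19.1 FPKM in DKO hippocampus, a log2 ratio of 0.38 after depletion (p = 0.0058, q = 0.508 in the authors' deposited table). Slc6a13 (GAT2), a GABA transporter of meninges and liver, was at 1.13, 1.96 and 1.97 FPKM, a log2 ratio of 0.79 (p = 0.0201, q = 0.783 in the authors' deposited table). Beside Slc6a13, the 10 genes of meninges and vessels summed to 211 FPKM in control, 327 FPKM in TRF2-depleted and 333 FPKM in DKO hippocampus, with Ptgds called higher against control in both. Ptgds, 1 of 8 tested, made up most of that sum, at 165, 265 and 283 FPKM. Of all genes tested, 0.183% and 0.204% were called in these comparisons. In TRF2-depleted against control hippocampus 10 of 10 genes had higher values. There 6 of 8 tested had an unadjusted deposited p under 0.05 (5.45% of all genes). In DKO against control 7 were higher and 2 lower past 1 FPKM, with 2 of 8 at such a p (7.48%). However, 8 of the 10 genes had lower values in DKO than in TRF2-depleted hippocampus. Their part in the Slc6a13 values was not tested. Beside Slc32a1, the 12 interneuron markers, of which it is 1, summed to 551, 599.9 and 627 FPKM with 0 called. In cortex the lowest p of the list was for Aldh5a1, an enzyme of GABA breakdown, at 6.60 FPKM in control and 3.74 FPKM after depletion (log2 -0.82, p = 0.00725, q = 0.208 in the authors' deposited table).

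Among scaffolds and trafficking genes, Gabarapl1, a relative of the GABA-A receptor associated protein that also serves autophagy, had the lowest p of any gene in these lists. It was at 73.3 FPKM in control, 101.8 FPKM in TRF2-depleted and 108.6 FPKM in DKO hippocampus, with log2 ratios of 0.47 (p = 0.0144) and 0.57 (p = 0.0014, q = 0.305 in the authors' deposited table). Both ratios use the same control samples. Plcl1, which binds GABA-A receptor subunits, had 3.69 FPKM in control hippocampus and 2.45 FPKM in DKO (log2 -0.59, p = 0.0206 in the authors' deposited table). Dag1, the dystroglycan of inhibitory synapses, was at 13.2 and 11.5 FPKM in cortex (log2 -0.21, p = 0.0413 in the authors' deposited table).

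Kctd16, an auxiliary subunit of GABA-B receptors, had 7.78 FPKM in control hippocampus and 3.79 FPKM in DKO (log2 -1.04, p = 0.0328, q = 0.867 in the authors' deposited table). In cortex Kctd16 was at 3.82 FPKM in control and 6.38 FPKM after depletion (p = 0.193 in the authors' deposited table). Rgs7bp, which tethers a G protein regulator to the membrane, had 40.5 FPKM in control hippocampus and 32.9 FPKM after depletion (log2 -0.30, p = 0.0206 in the authors' deposited table). Gnai1, of the same list, went the other way there, from 39.6 to 48.3 FPKM (log2 0.29, p = 0.02045 in the authors' deposited table). Slc6a9 (GlyT1), the glial glycine transporter, was at 2.24, 4.54 and 1.77 FPKM in the 3 hippocampal conditions, with the lowest p for DKO against TRF2-depleted tissue (log2 -1.36, p = 0.0188, q = 0.766 in the authors' deposited table). Among other anion carriers, 1 row of Slc4a10, a bicarbonate transporter of neurons and choroid plexus, went from 14.6 to 25.4 FPKM in cortex (p = 0.00245, q = 0.115 in the authors' deposited table), while the gene's summed level went from 37.4 to 39.7 FPKM.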

How the data were processed

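RNA from cortex and hippocampus of mice was extracted with a Qiagen RNeasy kit and made into libraries with NEBNext Ultra, per the labels' protocols. CASAVA 1.8, TopHat2, Cufflinks and Cuffdiff on the mm10 build are named in the submitters' processing notes. The authors deposited 1 Cuffdiff table per tissue with 26348 coding-sequence rows per comparison: FPKM pooled over the samples of a condition, a p-value and a q-value. Reads per sample are not given, so depth is unknown and no SD, n or floor can be printed for a level.

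FPKM was summed over the rows of a gene (32 rows for the 27 genes), and log2 ratios were taken without a pseudocount, for genes at 1 FPKM or more in 1 condition. A gene was called where a tested row had a deposited q of 0.05 or less. The main row is the tested row with the highest level. The 95% interval is an approximation, chosen after seeing the data: the log2 ratio of that row divided by the normal quantile of its deposited p gives the standard error. Whether samples came from separate animals is not stated, so p-values may measure technical spread. The calling, adjustment and median steps were tested on simulated data, and the interval step was not.

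The members and lists were chosen with earlier results of these data known. The genes named are the 27 members, Terf2, called genes of each pathway list or else at most 2 with the lowest p per comparison, and, of the marker lists set beside a result, up to 2 genes or those called. For choroid plexus all called genes are named. Promoter entries are RefSeq's. Python 3.11.15, pandas 2.3.3, scipy 1.17.1 and matplotlib 3.10.9 were used.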

Additional observations from a re-analysis of the deposited data

How the results depend on the processing

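No paired analysis was possible because the deposited values are pooled per condition and carry no sample columns, so leaving out each replicate and a replicate block were not run. Relaxing the call to an unadjusted p under 0.05 moved the count of called genes from 0 to 1 in TRF2-depleted against control hippocampus, to 2 in DKO against control and to 2 in DKO against TRF2-depleted hippocampus; in cortex it stayed at 0. No q of the set was under 0.537 in the authors' deposited table (Glra3 in cortex). Thresholds on q of 0.01 and 0.1 could therefore only leave 0 called. Benjamini-Hochberg adjustment within each comparison also left 0 called in all 4. The 40 alternative values of the medians and of the carrier ratio (highest row only, tested rows only, pseudocounts, a minimum of 5 FPKM) all lay within 0.1 of the values reported on the log2 scale. Each carrier has 1 row, so the choice of rows could not change the carrier ratio. For single genes, the highest row alone moved 8 of 96 log2 ratios by more (Gabrq in 4 comparisons, Gphn in 3, Glrb in 1), and a pseudocount of 0.1 FPKM moved 17, all of genes below 1 FPKM apart from Nlgn2 in cortex (-6.89 to -3.67).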
